A study of Mus musculus with 9 samples.

Results

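The matrix metalloproteinases (MMPs), the ADAM and ADAMTS proteases and their tissue inhibitors (TIMPs) were followed across 4T1 mammary tumors from mice on a low-fat diet, on a high-fat diet, and on a high-fat diet with the LIFR inhibitor EC359. The members were every gene in the deposited count tables whose symbol was Mmp, Adam or Timp followed by a digit, or began with Adamts. This rule used names and no measured value, and it took 83 of the 22609 listed genes. They comprised 23 MMPs, 32 ADAMs, 19 ADAMTS proteases, 5 ADAMTS-like proteins and 4 TIMPs.

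MMPs and ADAMTS proteases are secreted or membrane-bound zinc enzymes that cut collagens, proteoglycans and other parts of the extracellular matrix. ADAMs are membrane proteins, some of which release growth factors, cytokines and receptors from cell surfaces. Most of these enzymes are made as inactive precursors, and TIMPs block the active forms. In carcinomas much of this proteolysis is carried out by fibroblasts and leukocytes of the stroma as well as by the cancer cells.

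The study asked how obesity acts on triple-negative breast cancer and whether blocking the receptor for leukemia inhibitory factor (LIFR) counters it. 4T1 is a mouse mammary carcinoma line used as a model of triple-negative disease. In all groups 500000 cells were placed into the fat pad of the mammary gland in BALB/c mice, an immunocompetent strain, 6 weeks after the diets began, and the diets were kept until the end. The LFD group received chow with 10 kcal% fat and the vehicle hydroxy propyl cellulose, the HFD group received 60 kcal% fat and the same vehicle, and the HFD + EC359 group received 60 kcal% fat and EC359 at 5 mg/kg, given intraperitoneally 5 days a week. Each group had 3 RNA-seq libraries, which were treated as 1 per tumor. None of these libraries came from EC359 on the low-fat diet, all tumors came from a single line, and the ages of the mice were not stated in the labels.

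Depth ranged from 5085268 to 9750959 counts per library, lowest in the LFD group and highest in the HFD + EC359 group, and a count of 3 corresponded to between 0.3 and 0.61 CPM (reads scaled to a common library total). The libraries also differed by base composition. Genes of low GC content minus genes of high GC content gave between -0.54 and -0.32 (log2) in LFD, between 0.10 and 0.16 in HFD and between 0.25 and 0.30 in HFD + EC359, so that this tilt moved with the groups. Its part in the results was not tested. Values with each library's trend over GC content and length removed are given for the named members described here, where a call is gained or lost. The pathway and marker genes were not checked in this way. The marker check of the tumor cells was uneven. Krt8 stood at 405 to 608 CPM and Krt18 at 286 to 494 CPM. Cdh1 measured 27.3 to 28.9 CPM in LFD, 5.56 to 6.13 CPM in HFD and 19.3 to 20.3 CPM in HFD + EC359. Epcam measured 6.84 to 7.73, 0.885 to 1.91 and 4.4 to 5.8 CPM in the same order. Krt19 reached at most 1.9 CPM and Cldn7 at most 0.313 CPM.

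The genes whose levels changed most are placed as follows in the mm9 build of the count tables. Adamts15 lies on chromosome 9 from 30706740 to 30730037 (minus strand), and Adamts8 on the same chromosome from 30750148 to 30770443 (plus strand), with 20.1 kb between their starts. Adamtsl1 spans chromosome 4 from 85699819 to 86074286, Adamts16 chromosome 13 from 70866686 to 70980688, Adamts5 chromosome 16 from 85858402 to 85901370, Adamts2 chromosome 11 from 50415587 to 50617551, Adam12 chromosome 7 from 141074883 to 141416780, Mmp23 chromosome 4 from 155024764 to 155027493 and Timp3 chromosome 10 from 85763157 to 85812250. Counts were summed over the exons of each gene. Another 10 MMP genes form a cluster on chromosome 9 that spans 427 kb, from the start of Mmp13 at 7272514 to the end of Mmp7 at 7699416.

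The cluster holds stromelysins, collagenases, the macrophage elastase and matrilysin, and its promoters are known for AP-1 elements, short sites bound by Fos and Jun proteins. The 100 bases before the start are shown for its 6 tested genes and for Mmp1a, a relative of Mmp1b. They are shown because changes with diet and EC359 differed although most share the element, and Mmp8 is the case without it. Sequences are from RefSeq promoter windows (GRCm38.p6), 5′ to 3′ on the gene's own strand, with letters matching TGANTCA in capitals (this motif reads the same on either strand, and N is any base).
Mmp13, chr9:7272414-7272513, plus strand: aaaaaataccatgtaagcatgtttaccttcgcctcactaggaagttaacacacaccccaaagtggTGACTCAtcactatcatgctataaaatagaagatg
Mmp12, chr9:7347274-7347373, plus strand: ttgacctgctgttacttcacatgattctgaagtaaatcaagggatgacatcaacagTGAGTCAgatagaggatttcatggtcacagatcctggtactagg
Mmp1b, chr9:7388027-7388126, minus strand: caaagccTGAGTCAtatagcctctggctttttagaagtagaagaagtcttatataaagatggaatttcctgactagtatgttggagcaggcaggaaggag
Mmp3, chr9:7445722-7445821, plus strand: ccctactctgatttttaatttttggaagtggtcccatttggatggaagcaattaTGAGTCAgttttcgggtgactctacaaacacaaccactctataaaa
Mmp1a, chr9:7464041-7464140, plus strand: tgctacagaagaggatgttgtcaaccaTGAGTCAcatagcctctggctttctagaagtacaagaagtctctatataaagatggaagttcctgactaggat
Mmp10, chr9:7502242-7502341, plus strand: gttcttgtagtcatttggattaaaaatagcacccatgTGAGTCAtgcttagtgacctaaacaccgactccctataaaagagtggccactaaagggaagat
Mmp8, chr9:7558329-7558428, plus strand: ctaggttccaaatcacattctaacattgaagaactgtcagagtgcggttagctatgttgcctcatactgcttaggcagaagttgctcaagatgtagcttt

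In windows of 250 bases before to 50 bases after each start, the motif was found for 8 of the 10 cluster genes, in 8 of 12 windows (66.7%), and in 4 of 45 windows (8.89%) of the other members, against 7.81% of all 32851 windows in the table. In Mmp13, Mmp12, Mmp3, Mmp10, Mmp1a and Mmp1b its first base lay 35, 44, 46, 63, 73 and 93 bases before the start. A STAT-type motif, TTCNNNGAA, which also reads the same on either strand, was found in none of the 12 cluster windows (0%), in 4 of 45 windows (8.89%) of the other members and in 8.3% of all windows, and no member held both motifs. These matches describe letters in a window and not bound sites. Windows were at hand for 52 of the 83 members.

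Of the 83 members, 50 had enough counts to be tested and 33 did not. The untested genes were 18 ADAMs, 8 MMPs, 5 ADAMTS proteases, 1 ADAMTS-like protein and 1 TIMP, and 11 of them had no count in any library. The highest count of an untested member in a library was 15, and 23 of the 33 never exceeded 3 counts in any library. Timp4, the untested TIMP, had at most 2 counts in a library. Among the tested members 45 had at least 10 counts in every library.

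Levels between genes were compared as CPM per kb of exon, the mean of all 9 libraries. Mmp14 (224), the membrane-type enzyme that activates Mmp2, and Timp2 (188), which takes part in that activation, stood highest. Mmp9 (137), the gelatinase of leukocytes and many tumor cells, and Mmp3 (109), a stromelysin, followed. Adam15 (62.6), Adam8 (50.7), an ADAM of leukocytes and tumor cells, and Timp1 (49.3) came next, then the sheddase Adam17 (38.6), Mmp2 (33.0), Adamts7 (32.9), Mmp11 (32.7) and the sheddase Adam10 (30.3).

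The abundant Mmp14 and Mmp9 differed little between the groups. Mmp14 measured 594, 557 and 552 CPM in LFD, 601, 596 and 585 CPM in HFD and 576, 582 and 586 CPM in HFD + EC359. Mmp9 measured 427, 422 and 424 CPM in LFD, 450, 440 and 434 CPM in HFD and 432, 425 and 421 CPM in HFD + EC359. Both genes differed by at most 0.06 on the log2 scale in any comparison (SE 0.03), and neither passed an adjusted p of 0.05. In HFD against LFD they passed after GC and length correction, at 0.23 for Mmp14 and 0.21 for Mmp9, and with library totals alone, at 0.10 and 0.09, and Mmp14 also without LFD replicate 1, at 0.09. In HFD + EC359 against LFD they passed after GC and length correction (0.21 for Mmp14 and 0.16 for Mmp9), and Mmp14 also with library totals alone (0.10). Adam17, the main releasing enzyme for TNF and EGF-family ligands, stood between 165 and 178 CPM in all 9 libraries and did not pass in any comparison, though with the trend removed it passed against LFD, at -0.22 in HFD and -0.21 in HFD + EC359.

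**Figure D1:**
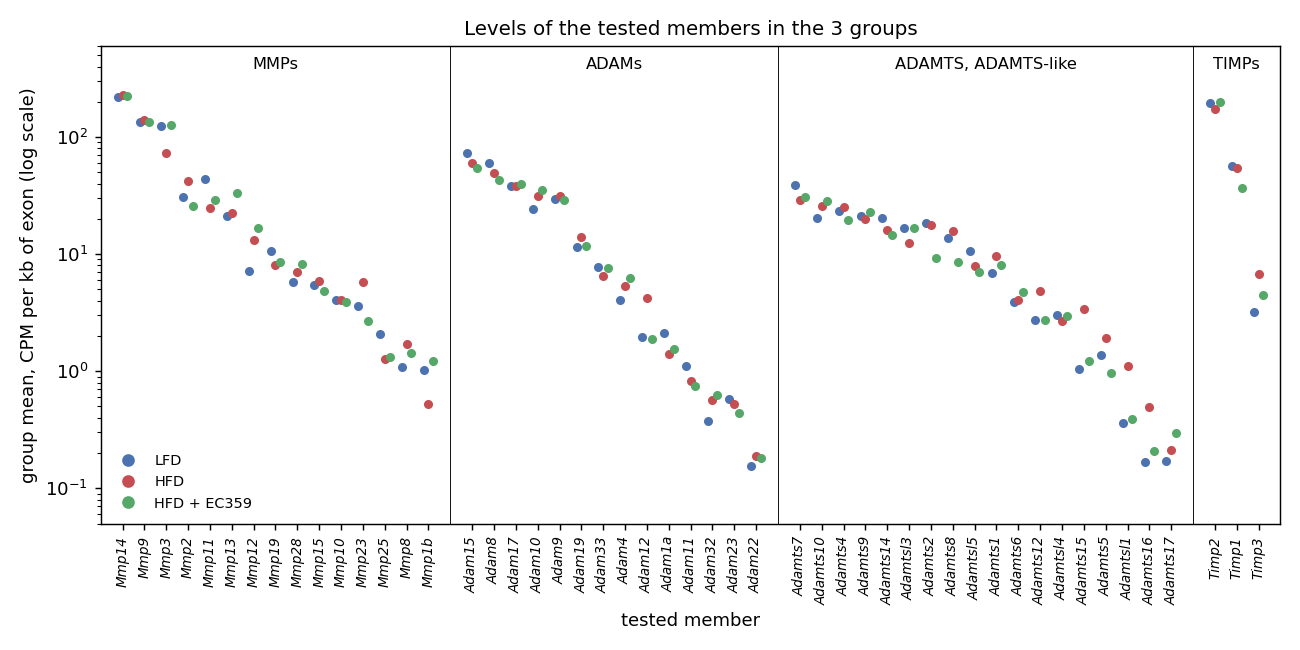
Group means of the 50 tested members in CPM per kb of exon (log axis), ordered within each family by their mean over all libraries; blue is LFD, red HFD and green HFD + EC359. Mmp14 and Timp2 lie highest, and the wide gaps between groups are among ADAMTS genes of low level such as Adamts15 and Adamtsl1.

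The comparison of HFD with LFD asks which of these genes follow the diet. Calls were made by edgeR's quasi-likelihood test on all 13366 genes with enough counts, in a model of the 3 groups, at a fold change over 2 with an adjusted p under 0.01, or at an adjusted p under 0.05 with any fold change. At the fold threshold 5 of 50 tested members were called (10%, against 5.69% of all tested genes), and all 5 were higher in HFD (3.02% of all tested genes were called higher and 2.68% lower): Adamts15, Adamtsl1, Adamts16, Adam12 and Timp3. At an adjusted p under 0.05, 30 of 50 were called (60%, against 51.8% of all tested genes), 17 higher and 13 lower (26% and 25.8% of all tested genes). The members' median log2 fold change was 0.06, beside 0.01 over all tested genes.

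Adamts15, a hyalectanase that cuts versican and related proteoglycans, measured 6.31, 6.41 and 5.97 CPM in LFD, 20.7, 20.7 and 19.5 CPM in HFD, and 6.69, 6.32 and 8.8 CPM in HFD + EC359. The HFD libraries all lay above those of both other groups, which overlapped each other. The level in HFD was 3.24-fold that in LFD (log2 fold change 1.69 ± 0.15 (SE), n = 3 per group, edgeR adjusted p = 3.88e-11), and it was 2.77-fold lower in HFD + EC359 than in HFD (-1.47 ± 0.13, edgeR adjusted p = 7.4e-11). Fibroblast markers (10 genes) also had their highest sum in HFD, at 13600 to 14400 CPM against 7790 to 9230 CPM in LFD and 4020 to 4140 CPM in HFD + EC359. Col1a1, Col1a2 and Col3a1 carried this sum, and the other 7 markers summed to 687 to 713 CPM in LFD, 874 to 889 CPM in HFD and 922 to 941 CPM in HFD + EC359, where they were highest. Their part in this and the following results was not tested. In bulk RNA, fewer cells of a type and less RNA per cell cannot be told apart.

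Adamtsl1, a matrix protein related to the ADAMTS family that lacks the protease domain, had the same shape at a lower level. It measured 2.85, 2.66 and 2.98 CPM in LFD, 8.85, 7.59 and 9.53 CPM in HFD, and 3.4, 3.5 and 2.3 CPM in HFD + EC359. The HFD group did not overlap the others, at 3.04-fold the LFD level (1.60 ± 0.23, edgeR adjusted p = 4.33e-07), and HFD + EC359 was 2.84-fold lower than HFD (-1.51 ± 0.20, edgeR adjusted p = 3.36e-07). Adamts15 and Adamtsl1 passed the fold threshold in both comparisons under every alternative run.

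Adam12, an ADAM of mesenchymal and tumor cells that cuts growth factor precursors and their binding proteins, measured 14.0, 17.8 and 13.5 CPM in LFD, 31.1, 32.7 and 33.5 CPM in HFD, and 13.5, 15.9 and 14.0 CPM in HFD + EC359. Its HFD libraries again lay above all others. It was 2.11-fold higher in HFD than in LFD (1.08 ± 0.11, edgeR adjusted p = 1.04e-09), which came to 0.998 and just under the fold threshold without LFD replicate 3, and 2.24-fold lower with EC359 than without it (-1.16 ± 0.10, edgeR adjusted p = 6.02e-11).

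Adamts16, a low-abundance ADAMTS protease, measured 1.02, 0.626 and 0.877 CPM in LFD, 2.4, 2.49 and 2.45 CPM in HFD, and 1.09, 0.79 and 1.2 CPM in HFD + EC359, which rests on 4 or 5 counts in each LFD library and 18 or 19 in each HFD library. The HFD group did not overlap the others (1.54 ± 0.40, edgeR adjusted p = 0.00151 against LFD, and -1.23 ± 0.33, edgeR adjusted p = 0.00521 with EC359). The fold threshold was missed in HFD against LFD with DESeq2 (adjusted p = 0.0113) and without LFD replicate 2 (1.35, adjusted p = 0.0163), and in the EC359 comparison with DESeq2 (adjusted p = 0.0406) and without any single library of those groups (-1.37 to -1.08).

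**Figure D2:**
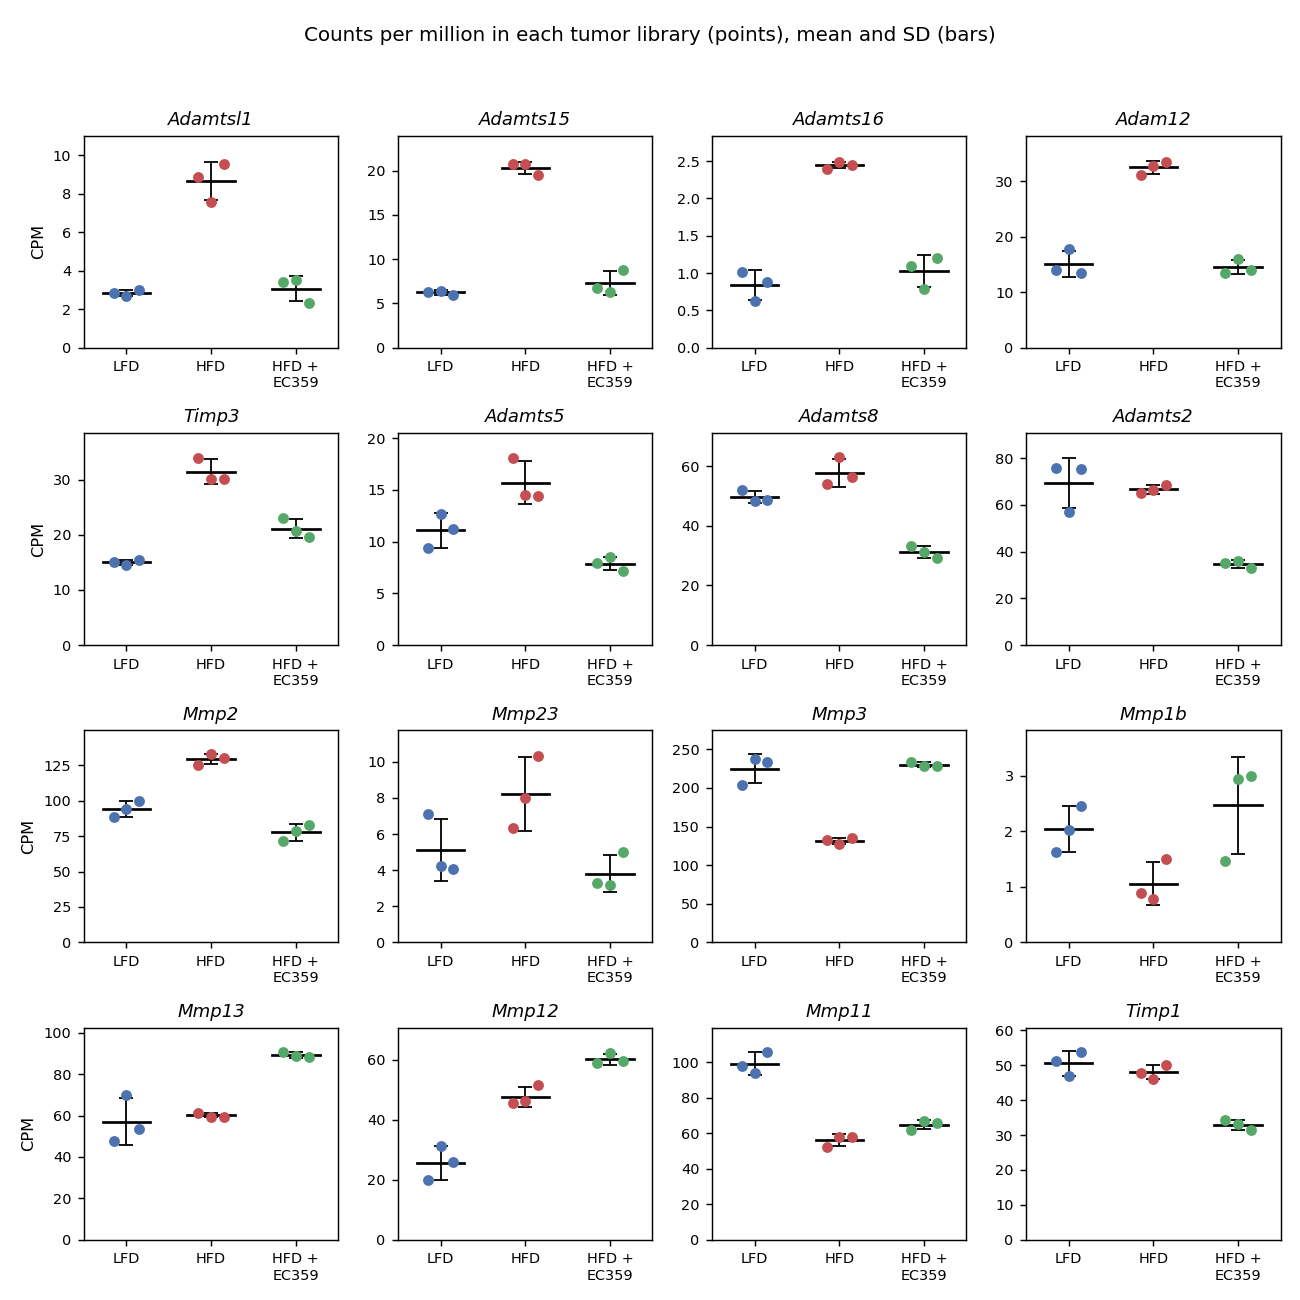
CPM of 16 members in each tumor library (points; the replicate numbers 1 to 3 run left to right within a group), with the group mean and SD as bars and each vertical axis starting at 0. In Adamts15, Adamtsl1, Adamts16 and Adam12 the 3 HFD points lie above the LFD and HFD + EC359 points; in Mmp3 they lie below both.

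The ADAMTS family was ordered by substrate. The hyalectanases, which cut versican, aggrecan and their relatives, had 6 tested members, and 4 of them rose with HFD while none fell (66.7% passed, against 51.8% of all tested genes, and 26% of all tested genes rose). Adamts15 led, Adamts5 rose by 0.48 ± 0.14, Adamts1 by 0.45 ± 0.09 and Adamts8 by 0.21 ± 0.08 (edgeR adjusted p = 0.00532, 5.71e-05 and 0.0239). The rises of Adamts5 and Adamts8 were not stable. Adamts5 missed an adjusted p of 0.05 once HFD replicate 1 was left out (0.36) and after GC and length correction (0.22), and Adamts8 without LFD replicate 2 (0.19), LFD replicate 3 (0.20) or HFD replicate 2 (0.14) and with DESeq2 (adjusted p = 0.0608). Adamts4 and Adamts9 did not pass with the diet, but after GC and length correction Adamts4 was higher (0.30) and Adamts9 lower (-0.19).

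With EC359 all 6 tested hyalectanases passed an adjusted p of 0.05, 5 lower and 1 higher, where 26.5% of all tested genes passed. Adamts5, the aggrecanase of cartilage, measured 18.1, 14.5 and 14.4 CPM in HFD and 7.9, 8.47 and 7.2 CPM in HFD + EC359, below the LFD libraries (9.36, 12.7 and 11.2 CPM) as well. The groups did not overlap (-1.003 ± 0.14, edgeR adjusted p = 8.69e-07), and the fold stood so near 2 that it fell below it on dropping HFD replicate 1 (-0.89) or HFD + EC359 replicate 3 (-0.94), with library totals alone (-0.97) and with a replicate block (-0.998).

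Adamts8 measured 51.9, 48.5 and 48.8 CPM in LFD, 53.9, 63.0 and 56.4 CPM in HFD and 33.2, 31.1 and 29.2 CPM in HFD + EC359. The EC359 libraries lay below all the others (-0.89 ± 0.08, edgeR adjusted p = 5.81e-11), whereas its chromosomal neighbour Adamts15 overlapped its LFD range there. Adamts4 (-0.36 ± 0.06) and Adamts1 (-0.25 ± 0.08) were lower with EC359 by less, and Adamts9 (0.19 ± 0.05) was higher. The EC359 call of Adamts1 was lost without HFD replicate 1 (-0.19) or without replicate 2 (-0.23) or 3 (-0.21) of HFD + EC359. Adamts1 lay, outside the rule for naming genes and was chosen after its values were seen.

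Versican itself was read from a separate list of pathway genes. Vcan, the large chondroitin sulfate proteoglycan that these enzymes cut, measured 16.7, 15.3 and 15.8 CPM in LFD, 38.8, 44.9 and 40.0 CPM in HFD and 16.3, 12.6 and 15.9 CPM in HFD + EC359. The HFD libraries lay above both other groups (1.37 ± 0.11, edgeR adjusted p = 2.71e-12, and -1.46 ± 0.10, edgeR adjusted p = 1.03e-13). Dcn (decorin), a small proteoglycan on the same list and on the fibroblast list, rose with HFD by 1.46 ± 0.09 and gave -0.12 ± 0.07 with EC359, which did not pass. Acan, Bcan and Ncan had too few counts to be tested.

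The procollagen N-propeptidases, which trim fibrillar procollagens before they assemble, had 2 tested members. Adamts2 measured 75.9, 57.1 and 75.3 CPM in LFD, 65.0, 66.2 and 68.6 CPM in HFD and 35.1, 35.9 and 32.8 CPM in HFD + EC359. LFD and HFD overlapped (-0.06 ± 0.08, not passed), while HFD + EC359 lay below both, by 1.93-fold against HFD (-0.95 ± 0.08, edgeR adjusted p = 4.71e-11). Without LFD replicate 2, the low library, the diet comparison passed at -0.20, and after GC and length correction it passed at 0.20 in the other direction. Adamts14 fell with HFD by 0.34 ± 0.06, a call that ended after GC and length correction (-0.12). With EC359 it gave -0.14 ± 0.06 (edgeR adjusted p = 0.0509), which passed 0.05 with RLE factors, only the 6 libraries compared, the replicate block, and without LFD replicate 1 or 2 (-0.15 to -0.14).

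Of the other ADAMTS proteases, Adamts10, which binds fibrillin microfibrils, rose with HFD (0.33 ± 0.06) and was higher again with EC359 (0.16 ± 0.05), though the EC359 difference was lost with DESeq2 (adjusted p = 0.0914) and on leaving out HFD replicate 1 (0.13), HFD replicate 3 (0.13) or HFD + EC359 replicate 2 (0.11). Adamts7 fell with HFD (-0.42 ± 0.05) and did not pass with EC359 (0.08 ± 0.04), except after GC and length correction (0.16, adjusted p = 0.00317). Adamts12, outside that rule as well, was chosen after its values were seen. It measured 16.9, 15 and 18.9 CPM in LFD, 26.7, 32.3 and 31.6 CPM in HFD and 17.9, 16.3 and 17.3 CPM in HFD + EC359 (0.83 ± 0.11 and -0.82 ± 0.10, edgeR adjusted p = 1.93e-07 and 1.15e-07), again with HFD above both other groups.

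Among the 4 tested ADAMTS-like proteins the direction was not shared. Adamtsl3 measured 120, 125 and 122 CPM in LFD, 89.1, 89.1 and 91.5 CPM in HFD and 119, 124 and 125 CPM in HFD + EC359, the reverse of Adamtsl1 (-0.45 ± 0.05 with HFD and 0.45 ± 0.05 with EC359). Adamtsl5 fell with HFD (-0.42 ± 0.11), a call lost after GC and length correction (-0.13) and without LFD replicate 1 (-0.26), and Adamtsl4 did not pass in either comparison (-0.17 ± 0.15 and 0.14 ± 0.14).

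**Figure D3:**
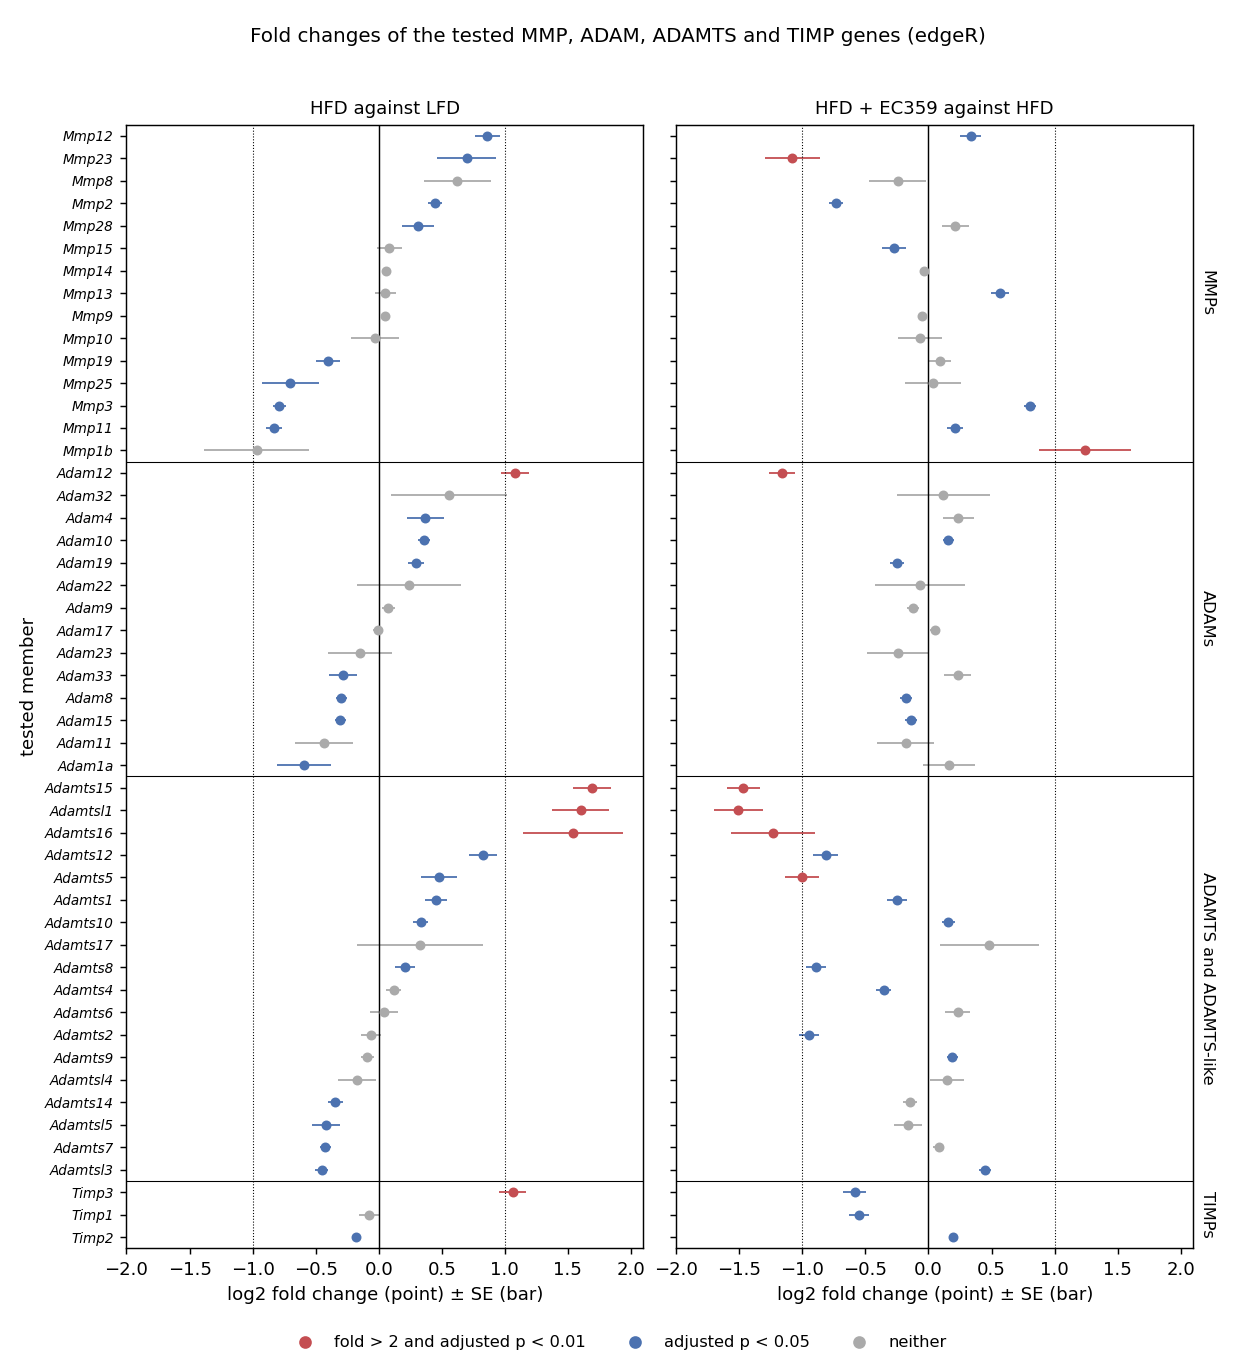
Log2 fold changes (points) with SE (bars) of the 50 tested members by family, for HFD against LFD on the left and HFD + EC359 against HFD on the right; red passed a fold over 2 and an adjusted p under 0.01, blue an adjusted p under 0.05, grey neither. Both panels use the same 3 HFD libraries, so a high or low HFD value moves a gene in opposite directions in them; Adamts15 reads 1.69 and -1.47, Mmp3 -0.79 and 0.81.

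The comparison of HFD + EC359 with HFD asks what LIFR inhibition changed under the high-fat diet. At the fold threshold 7 of 50 tested members were called (14%, against 3.46% of all tested genes). Adamtsl1, Adamts15, Adamts16, Adam12, Adamts5 and Mmp23 were lower, and Mmp1b was higher (1.38% of all tested genes were called lower and 2.08% higher). At an adjusted p under 0.05, 28 of 50 were called (56%, against 26.5%), 10 higher and 18 lower (12.7% and 13.8% of all tested genes). The median log2 fold change of the members was -0.07, beside 0.01 over all tested genes, and their median absolute change was 0.23, beside 0.13. The count of 7 fell to 4 without HFD replicate 1, without HFD + EC359 replicate 2 and without HFD + EC359 replicate 3. HFD is a side of this comparison and of that with LFD, so a library that is high or low in HFD enters both.

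The gelatinases parted. Mmp2, which cuts denatured collagen and basement membrane collagen and is made mainly by fibroblasts, measured 88.3, 94.1 and 100 CPM in LFD, 125, 133 and 130 CPM in HFD and 71.4, 78.9 and 82.7 CPM in HFD + EC359. The 3 groups did not overlap, with HFD highest and HFD + EC359 lowest (0.45 ± 0.06, edgeR adjusted p = 6.3e-08 for the diet, and -0.73 ± 0.05, edgeR adjusted p = 1.09e-12 for EC359). Mmp9, as above, stayed within 421 to 450 CPM.

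Stromelysins and collagenases of the chromosome 9 cluster were described in their order along the chromosome. Mmp13, a collagenase of bone and of invasive carcinomas, measured 47.8, 69.9 and 53.5 CPM in LFD, 61.2, 59.5 and 59.5 CPM in HFD and 90.8, 88.5 and 88.2 CPM in HFD + EC359. HFD lay inside the range of LFD, and HFD + EC359 lay above both (0.57 ± 0.07 against HFD, edgeR adjusted p = 2.22e-07). The diet difference of 0.05 ± 0.08 depended on the setting. It passed at 0.23 without LFD replicate 2 and at -0.26 after GC and length correction.

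Mmp12, the macrophage elastase, measured 19.9, 31.1 and 26.0 CPM in LFD, 45.4, 46.1 and 51.5 CPM in HFD and 58.8, 62.1 and 59.4 CPM in HFD + EC359. It was the member of the cluster that was higher at both steps, without overlap (0.86 ± 0.10 for the diet, edgeR adjusted p = 1.53e-08, and 0.34 ± 0.08 for EC359, edgeR adjusted p = 0.00225). The diet difference passed the fold threshold without LFD replicate 2 (1.03). The summed CPM of 9 macrophage markers was 1720 to 1750 in LFD, 1600 to 1630 in HFD and 1990 to 2010 in HFD + EC359, so it moved with Mmp12 between HFD and HFD + EC359 and not between LFD and HFD. Without Mrc1, its most abundant gene, it was 1160 to 1190, 1160 to 1180 and 1390 to 1410 CPM. Single markers differed from the sum. Of the 9, 5 rose and 2 fell with HFD, where 26% and 25.8% of all tested genes did. Emr1 (0.47 ± 0.08), Cd68 (0.47 ± 0.09), C1qc (0.21 ± 0.05) and Csf1r (0.15 ± 0.04) rose with HFD and again with EC359, as Mmp12 did. Lyve1 rose with HFD and fell with EC359, and the abundant Mrc1 and Cd163 fell with HFD. The part of macrophages in the Mmp12 result was not tested.

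Mmp3, a stromelysin that cuts proteoglycans and activates other MMP precursors, measured 204, 238 and 234 CPM in LFD, 132, 128 and 135 CPM in HFD and 234, 228 and 229 CPM in HFD + EC359. The HFD libraries lay below both other groups (-0.79 ± 0.05, edgeR adjusted p = 1.06e-14, and 0.81 ± 0.05, edgeR adjusted p = 2.9e-15). Among the tested members it had the lowest adjusted p in both comparisons, and it kept its call and direction in both under every alternative run.

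Mmp1b, a rodent counterpart of the human interstitial collagenase, measured 1.63, 2.03 and 2.46 CPM in LFD, 0.885, 0.785 and 1.5 CPM in HFD and 1.46, 2.94 and 3.0 CPM in HFD + EC359, on 6 to 30 counts a library. The diet difference was -0.97 ± 0.42 (edgeR adjusted p = 0.0506). It passed 0.05 under 6 alternatives, with RLE factors, with only the LFD and HFD libraries fitted and without HFD + EC359 replicate 1 (-0.97 in each), without LFD replicate 1 (-1.09) or HFD replicate 3 (-1.29), and after GC and length correction, where it also passed the fold threshold (-1.31, adjusted p = 0.00947). HFD and HFD + EC359 overlapped in 1 library. The EC359 difference passed narrowly (1.24 ± 0.36, edgeR adjusted p = 0.00979), missed 0.01 with DESeq2 (0.0441), RLE factors (0.0101), the trend removed (0.0206) and without LFD replicate 2 (0.0103) or LFD replicate 3 (0.0113), and missed 0.05 when HFD replicate 1 or 2 (0.0564 and 0.0611) or HFD + EC359 replicate 2 or 3 (0.0518 and 0.0708) was dropped. Its relative Mmp1a, in the same cluster, was not tested. Mmp1a had 0, 0 and 2 counts in LFD, 0 in every HFD library and 4, 4 and 6 counts in HFD + EC359. The last is at least 1.30-fold above the HFD level that 3 counts per library would give. Reads shared by the pair could have been split between them.

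Mmp10 and Mmp8, the neutrophil collagenase, did not pass in either comparison. Mmp10 measured between 5.29 and 7.98 CPM in all libraries, and Mmp8 gave 0.63 ± 0.27 for the diet (edgeR adjusted p = 0.0506) and -0.24 ± 0.23 for EC359 (edgeR adjusted p = 0.478). The diet difference of Mmp8 passed 0.05 with library totals alone, at 10 counts in every library, without LFD replicate 2 (0.82) and without HFD replicate 2 (0.75). Of the 6 tested genes of the cluster, Mmp13, Mmp12, Mmp1b and Mmp3, its first 4 tested genes by position, were higher with EC359, where 12.7% of all tested genes were called higher. Their sequences above all carry the AP-1 letters, as does that of Mmp10, which did not pass.

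**Figure D4:**
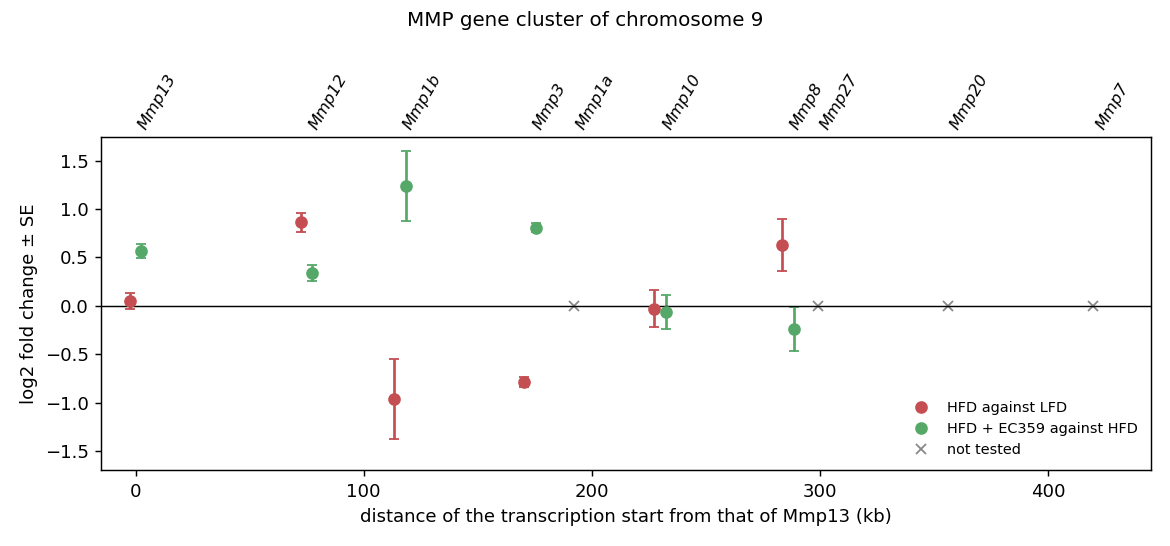
Log2 fold change with SE of the MMP genes of chromosome 9 by the distance of their start from that of Mmp13 (kb); red is HFD against LFD, green HFD + EC359 against HFD, and crosses mark untested genes. The green points of Mmp13 (0.57), Mmp12 (0.34), Mmp1b (1.24) and Mmp3 (0.81) lie above 0 and those of Mmp10 and Mmp8 lie near or below it, while the red points lie on either side.

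Outside the cluster, Mmp11, the stromelysin of carcinoma fibroblasts, measured 98.1, 93.8 and 106 CPM in LFD, 52.4, 58.0 and 58.0 CPM in HFD and 62.0, 66.7 and 66.1 CPM in HFD + EC359. It fell with HFD (-0.83 ± 0.06, edgeR adjusted p = 1.42e-12), and the rise with EC359 (0.21 ± 0.06, edgeR adjusted p = 0.0117) was lost when HFD replicate 1 (0.16) or either of HFD + EC359 replicates 2 and 3 (0.19 each) was left out. Mmp2 and Mmp11, both known from fibroblasts, moved in opposite directions with HFD and with EC359, and both lay below LFD in HFD + EC359 (-0.28 ± 0.06 and -0.62 ± 0.06).

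Mmp23, a membrane-anchored MMP without the usual hemopexin domain, measured 7.12, 4.22 and 4.04 CPM in LFD, 6.32, 7.98 and 10.3 CPM in HFD and 3.28, 3.16 and 5 CPM in HFD + EC359. HFD lay above HFD + EC359 without overlap (-1.08 ± 0.22, edgeR adjusted p = 0.000296) but overlapped LFD (0.70 ± 0.23, edgeR adjusted p = 0.0122). The fold threshold was missed on dropping HFD replicate 3 (-0.89) or the HFD + EC359 replicates 1 (-0.98) or 2 (-0.96), and the diet call was lost without LFD replicate 2 (0.56), LFD replicate 3 (0.56) or HFD replicate 3 (0.50). Of the remaining MMPs, Mmp19 fell with HFD (-0.40 ± 0.09) and Mmp25, a leukocyte membrane-type MMP, fell as well (-0.70 ± 0.22), the latter call being lost after GC and length correction (-0.51) and without LFD replicate 1 (-0.56) or 2 (-0.58). Mmp28 rose with HFD (0.31 ± 0.13, edgeR adjusted p = 0.044), a call lost under 7 alternatives, which were DESeq2, the 6 libraries alone, and leaving out replicate 2 or 3 of LFD (0.20 and 0.31), replicate 2 or 3 of HFD (0.30 and 0.25) or replicate 3 of HFD + EC359 (0.31). Mmp15, a membrane-type MMP, was lower with EC359 (-0.28 ± 0.10, edgeR adjusted p = 0.0283), which was lost with DESeq2, with library totals alone (-0.25), after GC and length correction (-0.16) and on dropping HFD replicate 2 (-0.24), HFD replicate 3 (-0.28) or HFD + EC359 replicate 3 (-0.23). Its diet difference did not pass (0.09 ± 0.10) except after that correction (0.34).

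Of the 8 tested sheddases and other somatic ADAMs with an active site, 3 rose and 3 fell with HFD (75% passed, against 51.8% of all tested genes) and 1 rose and 4 fell with EC359 (62.5%, against 26.5%). Adam10, which releases Notch receptors and cadherins, measured 107, 114 and 114 CPM in LFD, 143, 144 and 145 CPM in HFD and 164, 157 and 161 CPM in HFD + EC359. The groups were ordered without overlap (0.36 ± 0.05 for the diet and 0.16 ± 0.04 for EC359), yet both calls ended with the GC and length trend removed, at 0.04 (adjusted p = 0.555) and 0.07 (adjusted p = 0.226). Adam8 and Adam15 went the other way, by -0.30 ± 0.05 each for the diet and -0.18 ± 0.05 and -0.14 ± 0.04 for EC359. With the trend removed Adam8 kept its calls and Adam15 lost both (-0.04 and -0.06). Adam15 also lost the EC359 call without HFD replicate 1 or 2 or HFD + EC359 replicate 1 or 3 (-0.14 to -0.12).

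The noncatalytic ADAMs of nerve, Adam11, Adam22 and Adam23, stood under 7 CPM in every library and none passed in either comparison. Of the 20 ADAMs known from testis or immune tissue 3 were tested, Adam4, Adam1a and Adam32. Adam4 gave 0.37 ± 0.15 and Adam1a, which has a near copy in Adam1b, -0.59 ± 0.22 for the diet, and Adam32 did not pass. The Adam4 call was lost with DESeq2 (adjusted p = 0.0935), after GC and length correction (0.12) and on dropping either replicate 1 or 2 of LFD (0.28 and 0.34) or of HFD (0.32 and 0.39). The Adam1a call was lost with DESeq2 (adjusted p = 0.0573) and on dropping replicate 1 or 3 of LFD (-0.52 and -0.48) or replicate 1 of HFD (-0.47).

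The inhibitors were not moved alike. Timp3, which binds to the matrix and inhibits ADAM17 and the aggrecanases as well as MMPs, measured 15.1, 14.5 and 15.4 CPM in LFD, 34.0, 30.1 and 30.2 CPM in HFD and 23.0, 20.7 and 19.6 CPM in HFD + EC359. The 3 groups did not overlap, HFD being 2.09-fold above LFD (1.06 ± 0.11, edgeR adjusted p = 8.07e-10) and HFD + EC359 in between (-0.58 ± 0.09 against HFD, edgeR adjusted p = 8.96e-06). With the GC and length trend removed the diet difference was 0.91, under the fold threshold and still past the p threshold.

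Timp1, the secreted inhibitor induced by cytokines, measured 51.3, 46.8 and 53.7 CPM in LFD, 47.9, 46.2 and 50.2 CPM in HFD and 34.2, 33.1 and 31.4 CPM in HFD + EC359. LFD and HFD overlapped (-0.08 ± 0.08, not passed), and HFD + EC359 lay below both (-0.55 ± 0.08 against HFD, edgeR adjusted p = 1.15e-06). Timp2, the most abundant inhibitor, measured 687, 705 and 721 CPM in LFD, 633, 618 and 623 CPM in HFD and 723, 722 and 704 CPM in HFD + EC359, lower in HFD without overlap but by small amounts (-0.18 ± 0.03 and 0.20 ± 0.03).

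The comparison of HFD + EC359 with LFD sets the treated obese group beside the lean controls. At the fold threshold 2 of 50 tested members were called (4%, against 5.09% of all tested genes), Mmp12 higher (1.20 ± 0.10, edgeR adjusted p = 2.29e-12) and Adamts2 lower (-1.004 ± 0.09, edgeR adjusted p = 7.11e-12), where 3.66% of all tested genes were called higher and 1.43% lower. The looser rule called 24 of 50 (48%, against 58.3%), 9 higher and 15 lower (29.2% and 29.1% of all tested genes). Neither fold call held with the GC and length trend removed (0.68 for Mmp12 and -0.66 for Adamts2). Adamts2 also missed a fold of 2 without LFD replicate 1 (-0.94), LFD replicate 3 (-0.94) or HFD + EC359 replicate 3 (-0.97), with library totals alone (-0.93) and with either other count filter (-0.996 and -0.998).

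Several members that had moved far with the diet did not pass here. Adamts15 gave 0.23 ± 0.18, Adamtsl1 0.10 ± 0.27, Adamts16 0.31 ± 0.46, Adam12 -0.08 ± 0.12 and Mmp3 0.02 ± 0.05, where Mmp3 passed at -0.21 with the trend removed. Timp3 remained above LFD (0.48 ± 0.11), and Adamts5 (-0.52 ± 0.16), Adamts8 (-0.68 ± 0.08), Timp1 (-0.63 ± 0.08) and Mmp2 (-0.28 ± 0.06) lay below it. For Adamts5 the call was lost without LFD replicate 2 (-0.42), and for Mmp2 with the trend removed (-0.12).

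Genes around these proteases were read from 5 lists of 44 pathway genes (activators, other inhibitors, cofactors, other matrix proteases and ADAMTS substrates), 35 of them tested. In HFD against LFD 5 passed the fold threshold, all higher (14.3%, beside 5.69% of all tested genes): Vcan, Dcn, Fap, Plat and A2m. A2m had no count in any LFD library and 5.44, 3.66 and 4.77 CPM in HFD. That is at least 8.64-fold above the LFD level that 3 counts per library would give. The looser rule called 27 (77.1%, beside 51.8% of all tested genes), of which 13 rose and 14 fell. Plat, the tissue plasminogen activator, rose by 1.07 ± 0.08, while Plau, the urokinase activator, and its receptor Plaur fell by 0.40 ± 0.04 and 0.61 ± 0.06.

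With EC359 3 of the 35 passed the fold threshold, all lower (8.57%, beside 3.46%): Vcan, A2m and Pcsk5. A2m stood at 0.365, 0.113 and 0.4 CPM in HFD + EC359, near the level of 3 counts, so the size of its fall is imprecise. Pcsk5, a furin-like convertase that can activate protease precursors, measured 16.7, 13.0 and 15.8 CPM in LFD, 31.0, 28.7 and 26.1 CPM in HFD and 15, 10.8 and 12.3 CPM in HFD + EC359. HFD was above both other groups without overlap (0.92 ± 0.12 for the diet and -1.18 ± 0.11 for EC359, edgeR adjusted p = 1.11e-07 and 4.36e-10). The looser rule called 16 (45.7%, beside 26.5%), of which 6 rose and 10 fell. In HFD + EC359 against LFD 22 passed at that level (62.9%, beside 58.3%), and Dcn alone passed the fold threshold (2.86%, beside 5.09%), shares near or below those of all tested genes.

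The tumors are mixtures of cells, and the marker lists of other cell types moved between the groups. The summed CPM of 7 myofibroblast and pericyte markers was 134 to 140 in LFD, 167 to 183 in HFD and 113 to 116 in HFD + EC359. The sum had the order of the fibrillar collagens and of Mmp2, with HFD highest and HFD + EC359 lowest. Among its tested genes Acta2, Tagln and Myh11 had this order. Des fell with HFD (-0.71 ± 0.08), Rgs5 stayed above LFD in HFD + EC359 (0.61 ± 0.12), and Cspg4 did not pass in any comparison. The 10 genes of the fibroblast list all rose with HFD, and with EC359 they parted. Of them 6 fell, the collagens Col1a1 (-2.09 ± 0.05), Col1a2 (-2.06 ± 0.04) and Col3a1 (-1.98 ± 0.03) with Lum, Dpt and Thy1, Pdgfra rose (0.34 ± 0.03), and Pdgfrb, Dcn and Fap did not pass. In HFD + EC359 the collagens summed to 3080 to 3210 CPM, below their LFD range of 7080 to 8540 CPM, and the other 7 markers lay above theirs.

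Endothelial markers (7 genes) summed to 197 to 204 CPM in LFD, 363 to 391 in HFD and 302 to 315 in HFD + EC359, the order of Timp3. Among them Cdh5 and Kdr had this order. Pecam1 and Emcn did not pass with EC359 (-0.05 ± 0.05 and -0.03 ± 0.14). In HFD + EC359 Vwf lay below LFD (-0.35 ± 0.11), and Tek and Cldn5 did not pass against LFD. Markers of mast cells (7 genes) summed to 88.1 to 94.1, 41.5 to 46.1 and 125 to 130 CPM, and 11 epidermal markers to 1150 to 1320, 187 to 199 and 565 to 575 CPM, both lowest in HFD as was Mmp3. Krt14 (704 to 834 CPM) and Krt5 (235 to 266 CPM) made up most of the epidermal sum in LFD. Without Krt14 that sum was still lowest in HFD. Krt10, on the same list, did not pass in any comparison (0.06 ± 0.08 with HFD and -0.05 ± 0.07 with EC359). Neutrophil markers (8 genes) summed to 107 to 127 CPM in LFD, 148 to 163 in HFD and 173 to 182 in HFD + EC359, and markers of the mammary tumor epithelium (6 genes) gave 1110 to 1130, 707 to 714 and 763 to 791 CPM. Single neutrophil markers differed from their sum. Of the 7 tested, 4 rose with HFD, and with EC359 4 rose and 2 fell. S100a8 and Csf3r rose at both steps. Ltf and Ngp rose with HFD and fell with EC359 (-1.39 ± 0.18 and -0.84 ± 0.19). S100a9 did not pass with HFD (-0.08 ± 0.08), and Retnlg did not pass in any comparison. Adipocyte markers (7 genes) summed to 9.65 to 12.8, 26.6 to 29.7 and 25.8 to 29.4 CPM, T cell markers (6 genes) to 9.97 to 13.5, 8.25 to 9.8 and 13.1 to 15.3 CPM, and skeletal muscle markers (8 genes) to 115 to 126, 125 to 136 and 103 to 109 CPM. On the muscle list Myh1 fell with HFD (-1.14 ± 0.11) and rose with EC359 (1.53 ± 0.10), and Ckm and Myh4 did the reverse. No marker was at 0 in every library. The part of these cell types in the protease results was not tested.

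**Figure D5:**
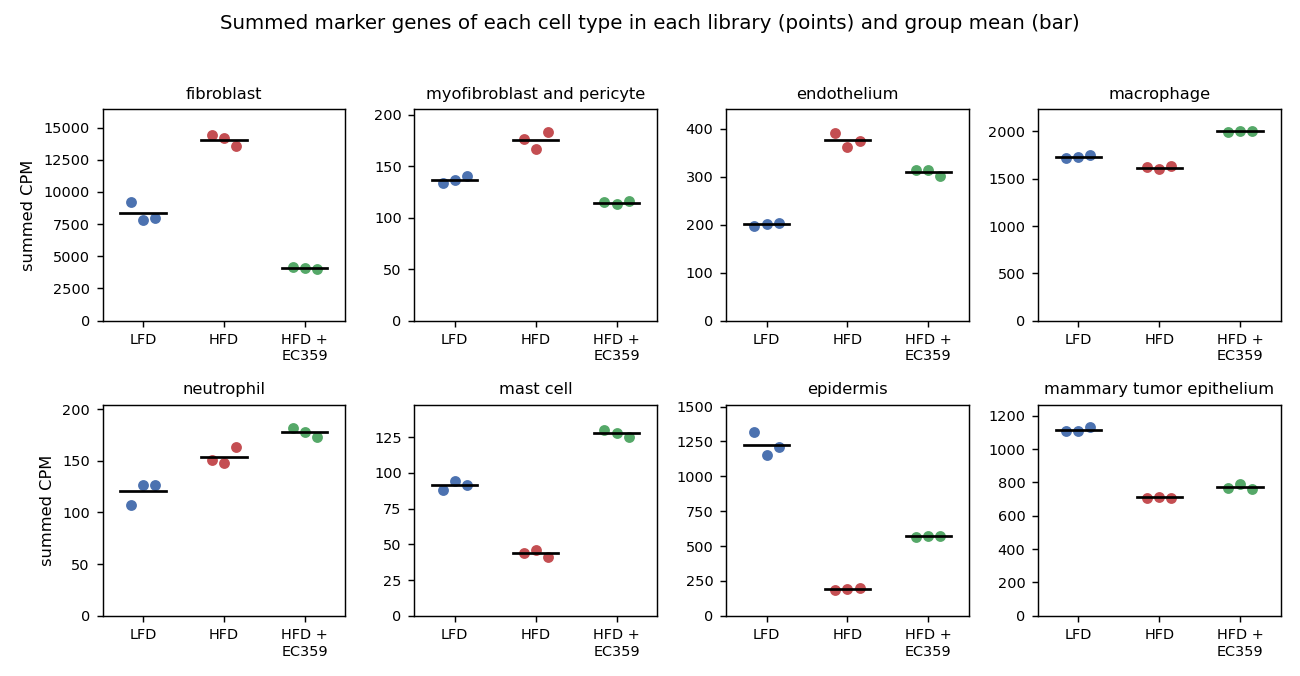
Summed CPM of marker genes for 8 cell types in each library (points) with the group mean (bar), each vertical axis starting at 0. Fibroblast sums, which 3 collagens carry, and myofibroblast sums are highest in HFD and lowest in HFD + EC359. Macrophage and neutrophil sums are highest in HFD + EC359. Epidermal, mast cell, macrophage and mammary tumor epithelium sums are lowest in HFD.

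Summed over all 83 members the libraries differed little. The total was 4288 ± 33.3 CPM in LFD, 4148 ± 6.96 CPM in HFD and 4171 ± 25.3 CPM in HFD + EC359 (mean ± SD, n = 3). The ADAMTS proteases gave 819 ± 33.0, 819 ± 9.23 and 732 ± 6.55 CPM, the MMPs 1593 ± 10.1, 1557 ± 3.06 and 1623 ± 3.56 CPM, and the TIMPs 770 ± 18.8, 704 ± 10.0 and 771 ± 13.3 CPM. These sums are led by Timp2, Mmp14 and Mmp9, and no test was made on them.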

How the data were processed

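RNA from 9 samples of 4T1 tumor (3 per group) was sequenced as stranded mRNA libraries with paired ends. Per the file headers, the authors counted reads per gene with featureCounts 1.5.0-p1 on the mm9 gene models, strand-specific, at a mapping quality of at least 2, with reads of several genes or positions split in fractions. The deposited values are therefore estimated counts made by the authors, expected counts that need not be whole. The labels name HISAT2 2.1.0 as the aligner, while the methods of the study name TopHat2, HTSeq and DESeq, and which produced the files is not settled here.

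Values were rounded to whole counts, filtered by filterByExpr and scaled by TMM, and a model of the 3 groups over all 9 libraries was fitted with edgeR 4.0.16 in R 4.3.3. The quasi-likelihood test was adjusted by Benjamini-Hochberg over all 13366 tested genes, with no p adjusted over the members alone. CPM values are TMM-scaled, and CPM per kb were divided by exon length. The fold and p threshold (2 and 0.01) follows the methods of the study. With 3 tumors against 3 the smallest p of an exact two-sided permutation test is 0.1. The common biological coefficient of variation was 3.63%, which is low for tumors of separate animals. The replicates were treated as separate tumors, but the animals behind them are not listed in the labels. The p-values measure the spread between these libraries alone, which may be less than that between animals. Libraries of a group differed by more than counting noise (mean chi-square per gene 1.36 to 3.0).

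Named were all members past the fold and p threshold, the 4 TIMPs, the 3 most abundant per class and 7 textbook members, 44 in all, and Adamts1, Adamts12 and Mmp10 after their values were seen. Members and lists were chosen with earlier results of these data known. Alternatives were DESeq2 1.42.0, RLE factors, library totals, other count filters, the libraries of a comparison alone, a replicate block, removal of each library's GC and length trend (mm9 genome), and each library left out in turn. The script was tested on simulated data. Promoter windows came from RefSeq (GRCm38.p6) and were not joined to mm9 coordinates.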

Additional observations from a re-analysis of the deposited data

How the results depend on the processing

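Of 2331 values of named members under alternatives, 2144 kept their direction and their side of an adjusted p of 0.05, 86 lost the call, 37 gained it and 64 changed direction, of which 1 had passed as reported (Adamts6, HFD + EC359 against LFD, by GC and length correction). The counts of members at an adjusted p under 0.05 stayed within 1.5 times under every alternative. The 7 fold calls with EC359 against HFD ranged from 4 to 7 with a library left out. The 2 fold calls of HFD + EC359 against LFD became 1 with library totals alone, with genes of at least 1 count and with at least 10 counts in every library, 0 after GC and length correction (edgeR, where 22 members passed an adjusted p of 0.05, and DESeq2 without the correction called 2), and 1 to 2 with a library left out. Same-numbered libraries showed no shared shift over all genes, as their deviations correlated between -0.0296 and 0.0169. This cannot exclude that same-numbered tumors were handled together, which the labels do not state. With the replicate block 5, 6 and 2 members passed the fold threshold in the 3 comparisons in place of 5, 7 and 2.

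The differences that changed direction were at most 0.27 (log2, either sign) as reported. Some passed an adjusted p of 0.05 in the other direction after GC and length correction, among them Mmp13 and Adamts2 in HFD against LFD. With library totals alone, Adam17 in HFD against LFD became 0.037, Mmp10 0.013, Mmp14 with EC359 0.00011, and Adamtsl3, Adamtsl4 and Mmp9 in HFD + EC359 against LFD 0.071, 0.048 and 0.073. With genes of at least 1 count Adam17 (HFD against LFD) became 0.0017, Adamtsl3 0.0039 and Mmp9 0.0060 (HFD + EC359 against LFD), and with at least 10 counts the latter were 0.0019 and 0.0039. After GC and length correction, HFD against LFD reversed for Adam22 (-0.011), Adamts2 (0.20), Adamts6 (-0.21), Adamtsl4 (0.072), Mmp13 (-0.26) and Timp1 (0.014). HFD + EC359 against LFD then reversed for Adam17 (-0.21), Adam22 (-0.12), Adamts6 (-0.043), Adamts12 (-0.056), Adamtsl4 (0.30), Mmp15 (0.18), Mmp1b (-0.21), Mmp3 (-0.21) and Mmp9 (0.16). The cause was not tested.

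With a library left out, the named differences that changed direction ranged as follows. In HFD against LFD they were Adam17 -0.019 to 0.0095, Adam22 -0.00076 to 0.55, Adam23 -0.25 to 0.013, Adamts2 -0.20 to 0.011, Adamts6 -0.021 to 0.081, Mmp10 -0.18 to 0.092 and Mmp13 -0.054 to 0.23. In HFD + EC359 against HFD they were Adam11 -0.36 to 0.0072, Adam22 -0.39 to 0.17, Adam32 -0.051 to 0.49, Mmp10 -0.19 to 0.023 and Mmp25 -0.068 to 0.12. In HFD + EC359 against LFD they were Adam12 -0.17 to 0.056, Adam22 -0.15 to 0.33, Adamts12 -0.087 to 0.10, Adamtsl1 -0.017 to 0.27, Adamtsl3 -0.029 to 0.019, Adamtsl4 -0.16 to 0.057, Mmp10 -0.24 to 0.0036, Mmp3 -0.043 to 0.054, Mmp9 -0.016 to 0.0020 and Timp2 -0.00077 to 0.033.

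Genes near the count floor are limited by depth, and Adamts16, Mmp1b, Mmp1a, A2m and the untested members are read with least precision. The depth and GC tilt of the libraries follow the groups, so their effect and that of the diet or drug cannot be told apart beyond the correction above.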
